A study of Mus musculus with 6 samples.

Results

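The genes described here are 40 interferon-stimulated genes that encode antiviral effectors, the enzymes of ISG15 conjugation, the interferon-inducible PARP proteins with Dtx3l, and related nuclear, TRIM and regulatory proteins. They were chosen by symbol, and all 40 were found among the 55571 gene symbols of the count table. All 40 passed the filter on low counts, which kept 13594 genes for testing. E0771 is a mouse mammary carcinoma cell line, and RNA-seq was done on cells carrying a vector control (3 libraries) and on cells expressing wild-type Malt1, called Malt1-WT (3 libraries). MALT1 is a paracaspase, a scaffold and protease that carries signals from CARD and BCL10 proteins to NF-kB. Both groups are the same line, no treatment is named in the labels, and the groups differ by the introduced construct. The labels do not say how the construct was delivered, whether each group is 1 clone or a pool, or whether replicates came from separate cultures. The p-values below therefore measure the spread between these libraries, which may be technical.

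Type I interferons bind a receptor that activates the kinases Jak1 and Tyk2, and the resulting complex with STAT2 and IRF9 binds a DNA element named ISRE in front of interferon-stimulated genes. Some of the products block single steps of virus replication. Another, ISG15, is a ubiquitin-like protein that an E1, an E2 and an E3 enzyme attach to other proteins and that USP18 removes. The interferon-inducible PARP proteins mostly attach single ADP-ribose units to proteins, and PARP9 works as a partner of the ubiquitin ligase DTX3L. Many of these genes also have a basal level in tumour cell lines and can be induced by IRF proteins without interferon.

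The libraries held between 17601656 and 20543778 counts, with 2.07 to 2.32% of counts on mitochondrial genes. The groups were separated along the first principal component (87.3% of variance). Malt1 counts were 517, 633 and 611 in the vector control libraries and 5526, 6176 and 5087 in the Malt1-WT libraries (log2 fold change 3.34, SE 0.042), in the direction of the labels. These counts cannot separate introduced from endogenous Malt1 transcripts. Of 8 epithelial markers, 6 were under 1 CPM (counts-per-million of a library, scaled by TMM) in both groups, among them Cdh1 and Krt18, so the usual epithelial markers were largely absent. Krt8 was at 68.6 and 59.7 CPM. Of 16 leukocyte markers, 5 were at 0 everywhere, and Ptprc and Tyrobp, which mark all leukocytes and myeloid cells, had 7 counts together over the 6 libraries. Of the 6 leukocyte markers tested, 3 were higher and 2 lower. Adgre1 went from 2, 1 and 0 counts to 21, 32 and 28, Cd68 from 4.48 to 14.4 CPM and Cd14 from 5.89 to 9.47 CPM, while Lyz2 fell from 3.78 to 0.741 CPM and Fcer1g from 14.8 to 12.2 CPM. The summed leukocyte markers lay between 27.9 and 32.6 CPM in the control libraries and between 37.5 and 42.1 CPM in Malt1-WT, and the summed endothelial markers between 7.11 and 7.84 and between 17.1 and 18.4 CPM. The summed fibroblast markers lay between 341 and 364 CPM and between 357 and 384 CPM, sums in which Pdgfrb was higher (151 to 224 CPM) and Pdgfra (161 to 116 CPM) and Col1a1 (20.1 to 10.9 CPM) were lower. The part of these shifts in the results below was not tested. In bulk RNA, fewer cells making a transcript and less of it per cell cannot be told apart.

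The promoter sequences of the members show how the ISRE letters are placed in genes that responded to different degrees. RefSeq promoter windows on GRCm38.p6 (250 bases before to 50 bases after a start site) were found for 31 members, and not for Usp18, Mx1, Mx2, Ifi27, Rtp4, Parp9, Parp10, Parp14 and Tor3a. They were searched on both strands for the ISRE written as GAAA, any 2 bases and GAAA, which reads TTTC, any 2 bases and TTTC on the other strand. It was present in 8 of the 31 members (25.8%), against 3.99% of the 27025 genes with a window. The 150 bases before the start are printed for Isg15 (chr4:156200819-156200968, minus strand), the modifier itself, and for Rsad2 (chr12:26456453-26456602, minus strand) and its divergent neighbour Cmpk2 (chr12:26469065-26469214, plus strand), since these neighbours changed by different amounts. Each sequence is written 5′ to 3′ on the gene's strand, with the ISRE matches in capitals.
Isg15: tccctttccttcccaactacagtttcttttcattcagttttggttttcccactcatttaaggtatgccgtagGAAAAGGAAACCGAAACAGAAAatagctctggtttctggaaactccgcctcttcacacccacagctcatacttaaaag
Rsad2: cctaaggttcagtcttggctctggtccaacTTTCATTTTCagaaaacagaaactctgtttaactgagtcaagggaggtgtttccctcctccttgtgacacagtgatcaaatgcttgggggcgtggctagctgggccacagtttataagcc
Cmpk2: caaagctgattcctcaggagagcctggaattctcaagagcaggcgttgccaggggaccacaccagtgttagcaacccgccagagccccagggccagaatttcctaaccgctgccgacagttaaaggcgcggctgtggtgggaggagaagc
Isg15 held 3 overlapping matches between 78 and 57 bases before its start. Rsad2 held 1 match on the opposite strand between 120 and 111 bases before its start. Cmpk2 held none. For Cmpk2 and the other members without a match, this says only that these exact letters are not in their windows. Similar letters with another spacing were not counted.

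The other matches before a start site are shown with 10 bases on each side, because they mark members with both small and large changes. They lie in Bst2 (chr8:71537577-71537612, minus strand, 2 overlapping matches), Ddx60 (chr8:61928024-61928053 and chr8:61928058-61928087, plus strand), Phf11b (chr14:59341361-59341390, minus strand) and Trim30a (chr7:104465210-104465239, minus strand, match on the opposite strand).
Bst2: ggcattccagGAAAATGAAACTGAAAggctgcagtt
Ddx60, first site: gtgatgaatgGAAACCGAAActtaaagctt
Ddx60, second site: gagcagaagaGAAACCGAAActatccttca
Phf11b: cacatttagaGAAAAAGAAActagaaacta
Trim30a: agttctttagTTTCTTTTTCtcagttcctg
Trim21 and Trim34a held matches just after their start, and Trim30a held a second one just after another annotated start. The log2 fold changes of the 8 members with a match ran from 0.35 (Bst2) to 1.81 (Phf11b). A looser core without the last base, GAAANNGAA (N is any base), which every match above contains, was present in 12 of 31 members (38.7%) and in 9.76% of all genes with a window. The GAS element, written TTCNNNGAA, was present in 4 members (12.9%) and in 9.55% of all genes. The kappaB element, written as GGGA, any 4 bases and CC, was present in 8 members (25.8%) and in 22.9% of all genes. A match is a string of letters and was not measured as a bound site.

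Across the 40 members, 39 were higher and 1 was lower in Malt1-WT (edgeR's quasi-likelihood test, Benjamini-Hochberg adjusted p under 0.05 over all tested genes). Calls were common in this comparison. Of all tested genes, 61.2% were called in either direction, 31.0% higher and 30.2% lower. The 39 higher members are 97.5% of the list. The member median was a log2 fold change of 1.12, against -0.003 for all tested genes, and members ranged from -0.19 (Ifi27) to 2.19 (Parp14). At least 2-fold higher were 22 of 40 members, against 8.35% of all genes. In 38 members all 3 Malt1-WT libraries lay above all 3 vector control libraries, as they did in 32.4% of all genes. Of the 22 members, 20 also passed a test against a 2-fold change, which 5.40% of all genes passed in the higher direction.

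**Figure D1:**
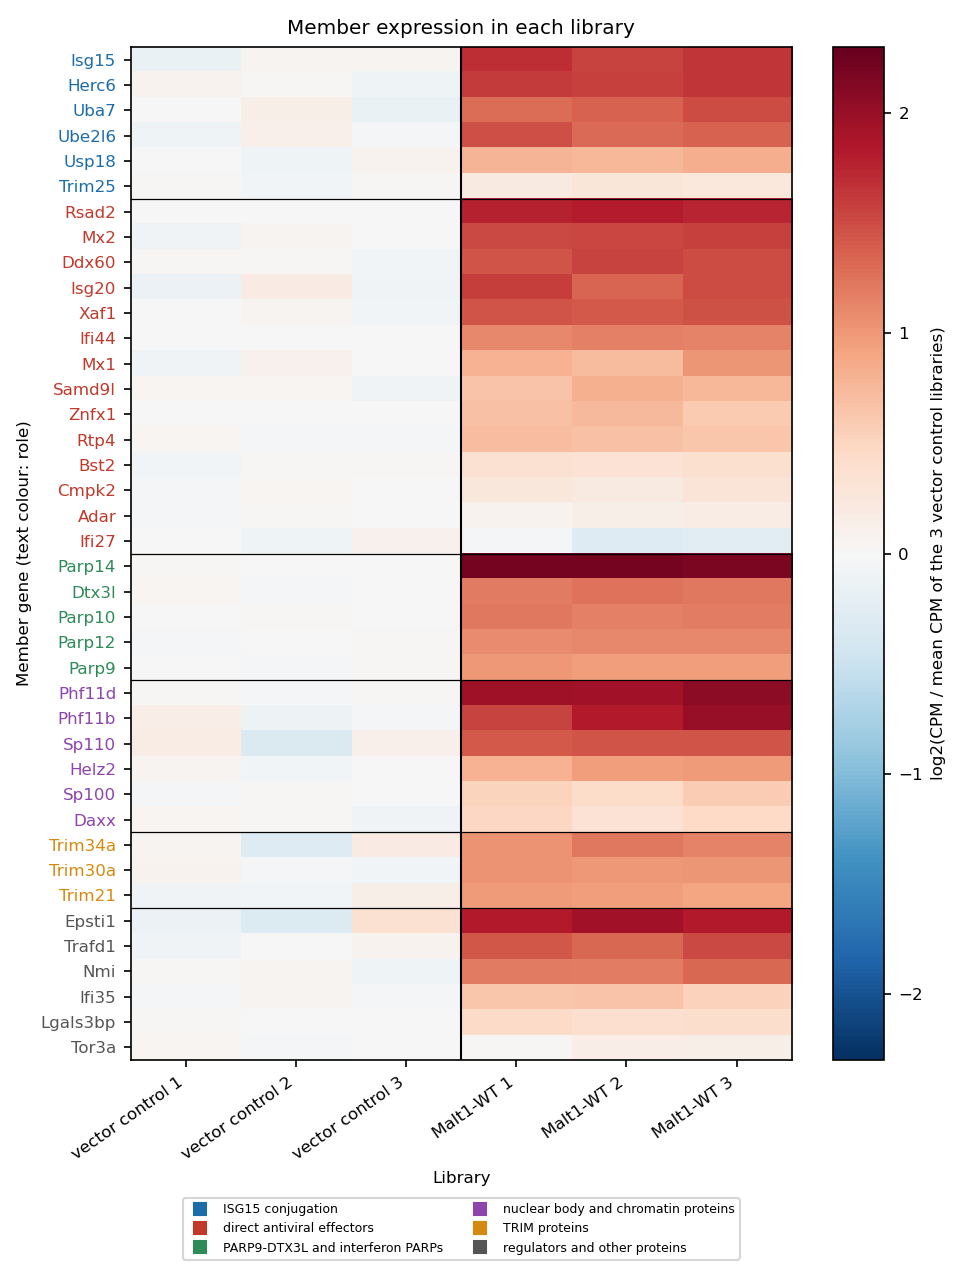
Each row is 1 of the 40 members, grouped by role, and each column is 1 library; the colour is log2 of the CPM over the mean CPM of the 3 vector control libraries. The Malt1-WT columns are red for nearly all rows, deepest for Parp14, and blue for Ifi27, which lay below the control mean in all 3 Malt1-WT libraries and least so in replicate 1.

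Summed over the 40 members, expression was 3231 ± 10.1 CPM in the control libraries and 6348 ± 32.2 CPM in Malt1-WT (SD, n = 3). Parp14 alone made up 19.6% of the summed difference, and 6 members (Parp14, Rsad2, Parp12, Samd9l, Helz2 and Herc6) made up 50.3% of it. The median coefficient of variation between libraries was 4.27% in the control libraries and 3.61% in Malt1-WT. It was highest for Epsti1 in the vector control (25.01%) and for Phf11b in Malt1-WT (15.3%), both low in counts.

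The 6 genes of ISG15 conjugation were all higher in Malt1-WT, with a median log2 fold change of 1.38, and 4 of them were at least 2-fold higher. Isg15 (chr 4, 156199424 to 156200818, GRCm38, minus strand), the modifier, was at 47.1, 54.5 and 54.8 CPM in vector control replicates 1 to 3 and at 168, 154 and 163 CPM in Malt1-WT replicates 1 to 3. The groups did not overlap, and the log2 fold change was 1.63 (SE 0.046, adjusted p = 1.19e-33, edgeR). Uba7, the E1 enzyme that activates ISG15, was at 7.67, 8.35 and 6.81 CPM in the control libraries and 18.6, 19.5 and 21.6 CPM in Malt1-WT. Its log2 fold change was 1.38 (SE 0.103). Ube2l6, the E2 enzyme that carries ISG15, was at 48.1, 55.5 and 50.4 CPM and then at 143, 127 and 131 CPM, with the same rounded log2 fold change of 1.38 (SE 0.048). The E1 and the E2 rose by estimates that differed by less than their SE, from levels per kilobase of exon of 1.14 and 25.7 CPM.

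Herc6, the main ISG15 ligase in mouse cells, was at 71.9, 69.5 and 63.9 CPM in the control libraries and 209.9, 203 and 215 CPM in Malt1-WT, a log2 fold change of 1.61 (SE 0.040). Trim25, a RING ubiquitin ligase of the RIG-I pathway that can also act with ISG15, had the highest level of the 6 in the vector control after Isg15, at 34.3 against 68.9 CPM per kilobase of exon (kb). It was at 200.2, 190.1 and 202 CPM in the control libraries and 227, 240.5 and 233 CPM in Malt1-WT. The Trim25 groups did not overlap, but its log2 fold change was only 0.24 (SE 0.034, adjusted p = 2.11e-08, edgeR). Usp18, the protease that removes ISG15 and also restrains the interferon receptor, was at 72.3, 67.2 and 75.7 CPM and then at 123, 121 and 127 CPM, a log2 fold change of 0.79 (SE 0.043). Usp18 stayed below a 2-fold change, while the E1, the E2, Herc6 and Isg15 were above it.

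**Figure D2:**
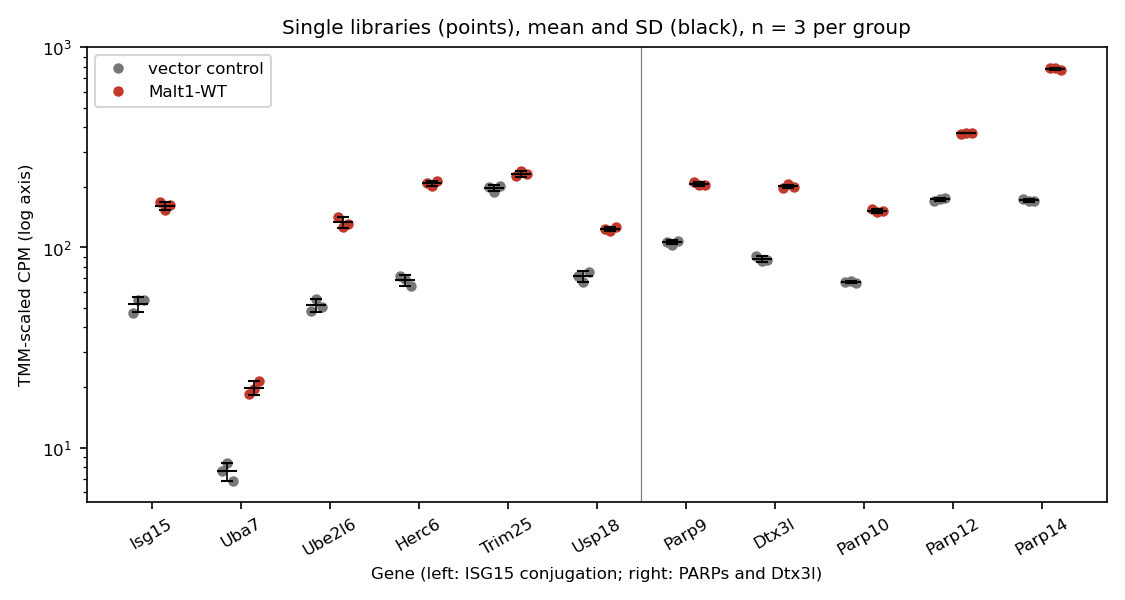
Points are the single libraries (grey, vector control; red, Malt1-WT) and black bars the mean and SD (n = 3 per group), as CPM on a log axis, for the 6 ISG15 conjugation genes and the 5 PARP and Dtx3l genes. The groups are apart for every gene shown, widest for Parp14 and narrowest for Trim25.

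The 4 PARP genes and Dtx3l were all higher, with a median log2 fold change of 1.18, and 4 of the 5 were at least 2-fold higher. Parp14 (chr 16, 35832874 to 35871544, GRCm38, minus strand), a large mono-ADP-ribosyltransferase with macrodomains, had the largest change of all 40 members. It was at 175, 170.1 and 171 CPM in the control libraries and 787, 789 and 772 CPM in Malt1-WT, a log2 fold change of 2.19 (SE 0.030, adjusted p = 2.46e-48, edgeR). Of all tested genes, 2.47% had a larger log2 fold change. Parp14 also held the most counts of any member in Malt1-WT. Per kilobase of exon it was at 84.1 CPM per kb, below Bst2 at 421 and Isg15 at 214 CPM per kb.

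Parp9, a macrodomain protein with little catalytic activity of its own, was at 107, 103 and 108 CPM in the control libraries and 213, 206 and 205 CPM in Malt1-WT (log2 fold change 0.97, SE 0.036). Dtx3l, its ubiquitin ligase partner, was at 90.5, 85.2 and 86.6 CPM and then at 199, 207 and 202 CPM (log2 fold change 1.21, SE 0.037). Both genes rose with no overlap between groups. They lie head to head on chr 16 (Dtx3l 35926511 to 35939151, minus strand; Parp9 35938470 to 35972605, plus strand), with starts 681 bases apart, and their exons share 458 bases. Parp10, a mono-ADP-ribosyltransferase that blocks some viruses, was at 66.9, 68.2 and 66.5 CPM and then at 156, 149.6 and 152 CPM (log2 fold change 1.18, SE 0.040). Parp12, a zinc finger PARP, was at 169.8, 175 and 177 CPM and then at 371, 372 and 372 CPM (log2 fold change 1.10, SE 0.031). These 4 genes lay in a narrow band of change, and Parp14 stood above them.

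Of the 14 genes grouped here as direct antiviral effectors, 13 were higher and 1 was lower. The group name is a label, since Xaf1, Rtp4, Cmpk2 and Ifi27 are not described below as acting on virus directly. Their median log2 fold change was 0.80, and 6 were at least 2-fold higher. Rsad2 (chr 12, 26442746 to 26456452, GRCm38, minus strand) encodes viperin, which turns CTP into a chain terminator of viral polymerases. It was at 108, 109 and 109 CPM in the control libraries and 374, 382 and 368 CPM in Malt1-WT, a log2 fold change of 1.78 (SE 0.033, adjusted p = 2.47e-42, edgeR). Cmpk2, a mitochondrial nucleotide kinase that can supply CTP, rose far less, from 101 ± 3.75 to 121 ± 3.63 CPM (SD, n = 3; log2 fold change 0.25, SE 0.040). Per kilobase of exon, Rsad2 and Cmpk2 were at 25.1 and 24.3 CPM per kb in the vector control and at 86.4 and 29.0 CPM per kb in Malt1-WT.

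Mx1 and Mx2 encode dynamin-like GTPases that trap incoming viral nucleocapsids, and both carry inactivating alleles in many inbred laboratory mice. Mx2 is annotated as a polymorphic pseudogene in GENCODE M21. Mx1 was at 7.43 ± 0.452 CPM in the control libraries and 13.4 ± 1.44 CPM in Malt1-WT (SD, n = 3; log2 fold change 0.85, SE 0.114). Mx2 was at 6.39 ± 0.338 and 18.6 ± 0.365 CPM (log2 fold change 1.54, SE 0.105). Both rose, from levels at which each library held 109 to 161 counts in the vector control.

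Ddx60, a helicase tied to RNA sensing, rose from 29.5 to 83.6 CPM (log2 fold change 1.504). Isg20, an exonuclease that degrades viral RNA, rose from 24.4 to 68.1 CPM (1.48), and Xaf1, an antagonist of the apoptosis inhibitor XIAP, from 50.4 to 137 CPM (1.44). Ifi44, an interferon-induced cytoplasmic protein, rose from 99.7 to 219 CPM (1.14). Samd9l, which restricts poxvirus translation, Znfx1, a helicase-domain sensor of viral RNA, and Rtp4, a receptor chaperone, rose by 0.75, 0.67 and 0.67 on the log2 scale. Bst2, or tetherin, which holds budding virions at the cell surface, rose from 297 to 380 CPM (0.35). Adar, which edits adenosine in double-stranded RNA, rose from 132 to 144 CPM (0.13, adjusted p = 0.0025, edgeR). With scaling by library size only, Adar was not called (log2 fold change 0.05, adjusted p = 0.233, edgeR). Of the exon bases of Adar, 16.8% overlap Chrnb2 on the other strand, and whether the counting used strand is not stated in the sources used here.

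Ifi27, a small membrane protein of mitochondria and endoplasmic reticulum, was the only member called lower. It was at 34.999, 32.7 and 37.4 CPM in the control libraries and 34.0, 28.4 and 29.8 CPM in Malt1-WT. The groups overlapped, since Malt1-WT replicate 1 lay above vector control replicate 2. The log2 fold change was -0.19 (SE 0.069, adjusted p = 0.0145, edgeR). Leaving out vector control replicate 3 ended the call (-0.14, edgeR adjusted p = 0.109), and so did leaving out Malt1-WT replicate 2 (-0.14, edgeR adjusted p = 0.106).

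All 6 nuclear body and chromatin genes were higher, with a median log2 fold change of 1.18. Phf11d, a PHD finger protein, was at 14.6, 13.8 and 14.6 CPM in the control libraries and 55.5, 54.5 and 59.9 CPM in Malt1-WT (log2 fold change 1.98, SE 0.068). Its neighbour Phf11b, 6055 bases away on chr 14, was at 1.88, 1.57 and 1.64 CPM and then at 4.98, 6.04 and 6.78 CPM (1.81, SE 0.194). Neither gene's groups overlapped, but Phf11b rested on 32 to 34 counts per vector control library. The genes of this family are alike, and reads may be split between them. Sp110, a nuclear body protein, rose from 3.40 to 9.18 CPM (1.44), and its relative Sp100 from 37.9 to 53.8 CPM (0.50). Helz2, a helicase and nuclear coactivator, rose from 188 to 354 CPM (0.92), and Daxx, a histone chaperone of the same nuclear bodies, from 82.8 to 111 CPM (0.42).

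All 3 TRIM genes outside the ISG15 group were higher. Trim21, a cytosolic antibody receptor with ubiquitin ligase activity, rose from 26.1 to 50.3 CPM (log2 fold change 0.95). Trim30a, a rodent TRIM protein that restrains innate signalling, rose from 85.7 to 173 CPM (1.02), and its relative Trim34a from 9.61 to 21.04 CPM (1.13). Trim30a and Trim34a were past 2-fold, but neither passed the test against a 2-fold change (adjusted p = 1 and 0.317, edgeR). Of the exon bases of Trim34a, 23.5% overlap an antisense gene.

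The 6 regulators and other proteins were all called higher, with a median log2 fold change of 0.92. Epsti1, an interferon response protein first found in epithelial and stromal co-culture, was at 4.09, 3.59 and 5.72 CPM in the control libraries and 15.9, 17.0 and 15.8 CPM in Malt1-WT (1.86, SE 0.128). Trafd1, a negative regulator of innate signalling, rose from 28.1 to 75.4 CPM (1.42). Nmi and Ifi35, which bind each other, rose by different amounts, from 40.9 to 96.2 CPM (1.23) and from 48.5 to 73.9 CPM (0.61). Lgals3bp, a secreted glycoprotein, rose from 251 to 334 CPM (0.41). Tor3a, a torsin ATPase of the endoplasmic reticulum, was at 65.3, 62.2 and 62.7 CPM in the control libraries and 64.4, 70.8 and 69.7 CPM in Malt1-WT. Its groups overlapped, and its log2 fold change of 0.11 was barely called (adjusted p = 0.0477, edgeR). Tor3a kept its call in 5 of 14 alternative settings, and DESeq2 gave it an adjusted p of 0.100.

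**Figure D3:**
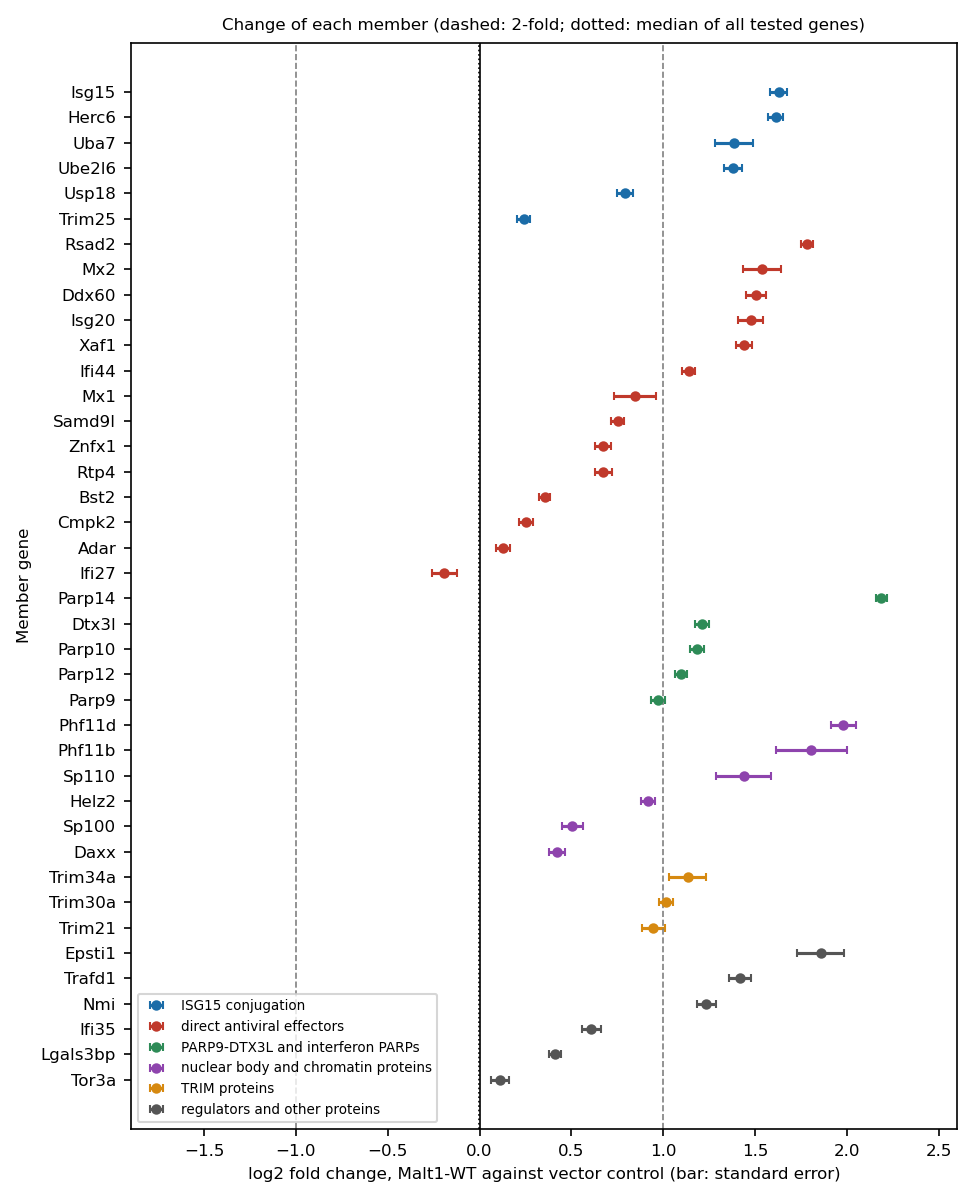
Points are the log2 fold changes of the 40 members, Malt1-WT against vector control, with bars of 1 standard error and colour by role; dashed lines mark a 2-fold change and the dotted line the median of all tested genes. Only Ifi27 lies below 0, and 22 members lie beyond the upper dashed line.

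Members that share a pathway step or a locus were compared by the ratio of their counts within each library, where the depth of the library cancels. For 8 pairs picked after their values were known, 7 had ratios that did not overlap between groups. Of all single genes tested, 64.4% had groups that did not overlap, in either direction, so nothing is read from the number of pairs. With 3 libraries against 3, the smallest two-sided exact permutation p is 0.1, so no pair could pass 0.05, and these 7 adjusted to 0.114 over the 8 pairs. The Rsad2 to Cmpk2 ratio was 1.11, 1.04 and 1.08 in the control libraries and 3.06, 3.27 and 2.98 in Malt1-WT, a 2.89-fold difference of the means. Both genes point away from each other with 12751 bases between them. The Parp14 to Parp9 ratio went from 1.62 ± 0.039 to 3.76 ± 0.070 (SD, n = 3), 2.32-fold, although the genes lie 66925 bases apart. Dtx3l to Parp9, with adjacent starts, differed by only 1.18-fold.

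Isg15 to Usp18, the modifier against its protease, went from 0.729 ± 0.080 to 1.30 ± 0.052, and Herc6 to Uba7, the ligase against the E1, from 9.02 ± 0.606 to 10.5 ± 0.686. Sp110 to Sp100 differed by 1.90-fold and Mx2 to Mx1 by 1.62-fold. Phf11b to Phf11d overlapped between the groups (0.118 ± 0.009 and 0.105 ± 0.013, exact permutation p = 0.2). Ratios of counts also carry the genes' exon lengths, so only their difference between groups can be read.

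**Figure D4:**
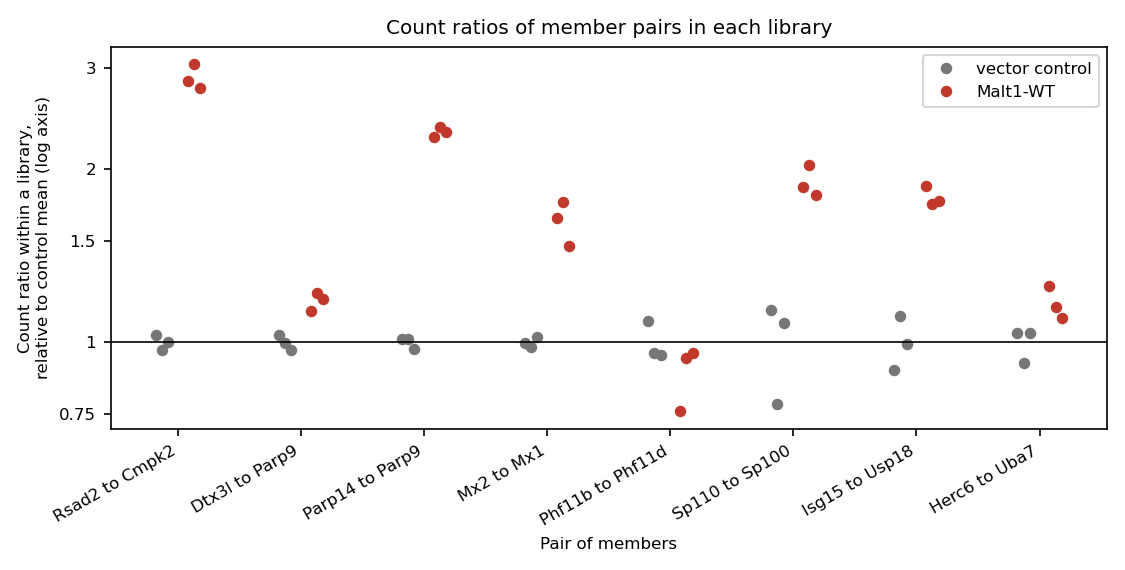
Points are the count ratios of 8 pairs of members in each library (grey, vector control; red, Malt1-WT), divided by the mean ratio of the vector control, on a log axis. The Rsad2 to Cmpk2 ratio stands near 3 in Malt1-WT, and only the Phf11b to Phf11d points overlap between groups.

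Per kilobase of exon, the most abundant members in the vector control were Bst2 (329 CPM per kb), Lgals3bp (88.2), Isg15 (68.9) and Samd9l (49.9). In Malt1-WT, Bst2 (421) and Isg15 (214) were followed by Lgals3bp (117), Parp12 (93.1), Rsad2 (86.4) and Parp14 (84.1). Across the 40 members, the log2 fold change ran against the vector control level per kilobase (Pearson r -0.45, Spearman rho -0.49), a description over genes of the same libraries, in which the vector control level enters both measures.

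The upstream pathway was read from lists of ligands, receptors, signal carriers, inhibitors, transcription factors, sensors and other effectors. Of 56 tested genes in these lists, 45 were higher, 5 were lower and 6 did not pass, with a median log2 fold change of 0.80. The shares over all tested genes, for this and the following lists, were 31.0% higher and 30.2% lower. Ifnb1, the type I interferon made by most cell types, had 1, 2 and 1 counts in the vector control libraries and 15, 14 and 13 in Malt1-WT. Its ratio of counts, scaled by library totals times their TMM factors, was 11.2 (95% interval 4.06 to 42.9, exact binomial, counting error only). The other 20 ligand genes had 2 counts in all vector control libraries together and 4 in the Malt1-WT libraries, and 16 of them had none, so a change of theirs was not detectable at this depth. Of 5 receptor genes tested, 4 were higher, led by Ifngr2, a chain of the interferon-gamma receptor, at 0.97.

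All 6 JAK-STAT signal carriers were called higher, but Jak1 barely so (0.07, adjusted p = 0.0420, edgeR), with groups that overlapped. Stat2 rose from 103 ± 0.793 to 235 ± 3.87 CPM (SD, n = 3; log2 fold change 1.18) and Irf9 from 55.8 ± 2.52 to 80.5 ± 0.808 CPM (0.53). Jak2, the kinase of the interferon-gamma receptor, had the largest change of the list (1.91). Among 6 inhibitors, 3 were higher and 2 lower, with Socs1 at 1.76, Socs3 at 0.88 and the phosphatase gene Ptpn6 at -1.08. Of 8 interferon-related transcription factors, 7 were higher and 1 was lower. The higher ones were led by Batf2 (3.08), Irf1 (2.49, from 77.3 to 434 CPM) and the MHC class I activator Nlrc5 (1.65). Irf7, the amplifier of interferon genes, was at 0.96. Of 12 nucleic acid sensors and adaptors, 9 were higher, led by Zbp1 (2.29) and the kinase gene Ikbke (1.73), while the adaptor Mavs was lower (-0.39).

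The IFIT and IFITM genes, which bind viral RNA or block viral entry, and the OAS list, whose enzymes answer double-stranded RNA, had medians close to that of the 40 members. Of 9 IFIT and IFITM genes tested, 7 were higher and 1 was lower, with a median of 1.15 and Ifit3 at 2.18. Of 9 genes in the OAS list, 8 were higher, with a median of 1.08. No difference between these lists was tested.

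Gene family relatives of the members gave medians nearer to 0, though some relatives rose by 2-fold or more. Of 15 other PARP and tankyrase genes, 9 were higher and 2 lower, and the median log2 fold change was 0.25. Tiparp rose from 141 to 324 CPM (1.20), Parp11 rose by 0.94 on the log2 scale, and Parp1, the abundant DNA-damage PARP, fell from 119 to 80.9 CPM (-0.56). All 4 other DELTEX genes were called higher, with a median of 0.27. In 2 of these 4 genes all 3 Malt1-WT libraries lay above all 3 vector control libraries, as they did in 32.4% of all genes. Dtx1 rested on 10, 5 and 6 counts in the vector control libraries and 5, 21 and 18 in Malt1-WT. Of 17 E1, E2 and HERC relatives, 7 were higher and 8 lower, with a median of -0.02. Among them Ube2l3, the closest relative of Ube2l6, fell from 174 to 145 CPM (-0.27), Sae1 of the SUMO pathway was at -0.73, and Uba1, the ubiquitin E1, did not pass (-0.02). Of 38 other TRIM genes, 15 were higher, 8 lower and 15 did not pass, with a median of 0.10. At least 2-fold higher were 7 of the 38 (18.4%), against 8.35% of all genes, and 1 was at least 2-fold lower. On the log2 scale Trim12a was at 1.33, Trim5 at 1.00, Trim30d at 0.80 and Trim59 at -1.01. The higher TRIM genes are 39.5% of their list, while 31.0% of all tested genes were higher and 30.2% lower. No family count was tested against these shares.

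**Figure D5:**
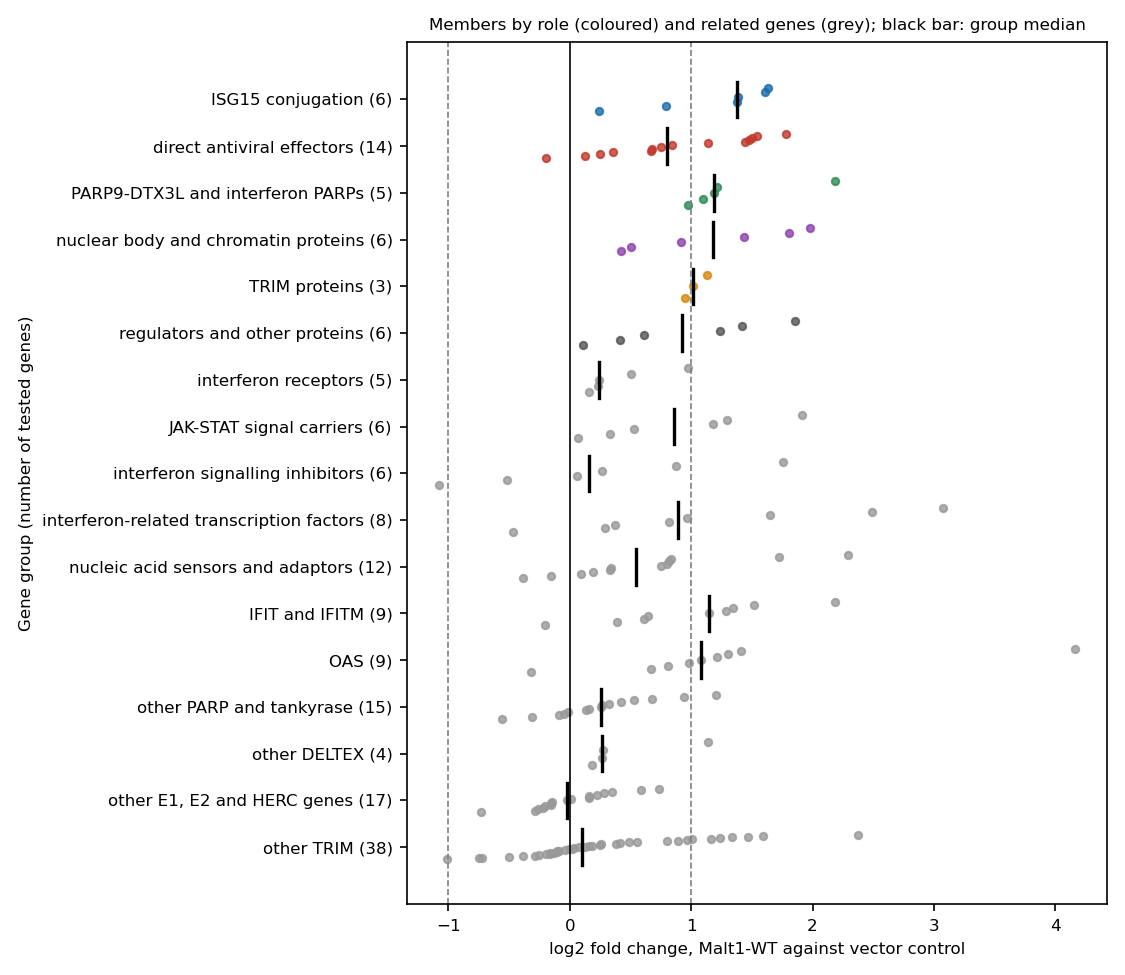
Each point is the log2 fold change of 1 tested gene, for the members by role (coloured) and for related gene lists (grey), and each black bar is the median of its row; the number of genes stands in brackets, and dashed lines mark a 2-fold change. The member rows have medians between 0.80 and 1.38, and the relatives in the lowest 4 rows between -0.02 and 0.27.

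In the authors' deposited table of the same contrast, 11 of the 40 members had an adjusted p under 0.05, against 1.13% of all 55571 genes. They were Isg15, Herc6, Mx2, Rsad2, Ifi44, Xaf1, Parp10, Parp14, Dtx3l, Phf11d and Ddx60. Over the 13594 genes tested here, the share in the authors' deposited table was 4.29%. In the authors' deposited table, 22 members had a log2 fold change beyond 1 in size, as did 13.4% of those 13594 genes. The log2 fold changes of that table differed from those of edgeR by -0.031 to 0.013 over the members. The table's score is 0 wherever its log2 fold change is below 1 in size. Its 11 members are therefore not a like count to the 39 called higher here against no change (31.0% of all genes). The nearer setting here is the test against a 2-fold change, which 20 members and 5.40% of all genes passed in the higher direction.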

How the data were processed

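Total RNA of 6 E0771 libraries was sequenced as paired-end reads from a directional kit, per the labels' protocols. Per the submitters' processing notes, the tools were Trim Galore 0.6.0, STAR 2.7.3a and featureCounts 1.6.3, and the build was GRCm38.p6. The deposited table holds raw counts per gene symbol in 6 columns, each mapped to 1 library by its name (0 columns were left unmapped). It also holds the authors' own comparison, per the file headers: a log2 fold change, p-values and a t statistic, a score made with a tool not named in the sources used here. The counts were tested here with edgeR 4.0.16 in R 4.3.3 (filterByExpr with a minimum count of 10, TMM scaling, robust quasi-likelihood fit, 3 against 3 libraries), with Benjamini-Hochberg adjustment over 13594 genes and a threshold of 0.05. SE is the log2 fold change over the square root of F. Of the symbols, 28089 had no count. Libraries of 1 group differed by 2.13 to 2.87 chi-square per degree of freedom, so none was a repeat deposit, and libraries of different groups by 96.4 to 107. Exon lengths, positions and overlaps came from GENCODE M21, matched by symbol.

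Alternatives were other scalings and filters, DESeq2 1.42.0, limma 3.58.1 with voom, a replicate block and leaving out each library. A test against a 2-fold change was chosen after seeing the data. The model was tested on simulated data. Members, gene lists and tests were chosen with earlier results of these data known. All members may be named; values in every library are given for the ISG15 and PARP groups, the 6 members with the largest change and those that fell or overlapped. Other lists name at most 3 called members with the largest change, with Ifnb1, Stat2, Irf9, Irf7 and Irf1. Jak1, Mavs, Parp1, Ube2l3, Uba1, Sae1, Trim5, Trim12a, Trim30d, Trim59 and the 8 pairs were chosen after their values were seen. Some genes that this rule names are not reported here.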

Additional observations from a re-analysis of the deposited data

How the results depend on the processing

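No member changed direction under any alternative. The number of members called higher was 37 to 39 over the other scalings, filters, tools, block and left-out libraries. With scaling by library size only it was 37, without Tor3a (adjusted p = 0.573, edgeR) and Adar, and the member median fell to a log2 fold change of 1.04 while the median of all genes shifted to -0.08. Leaving out each library gave 7878 to 8074 called genes, 38 to 39 members higher, 0 to 1 member lower and a member median of 1.05 to 1.12, the lowest without vector control replicate 2. The count of 0 lower members, with edgeR, came without vector control replicate 3 and without Malt1-WT replicate 2, where Ifi27 lost its call. It gave 42 to 46 pathway genes higher and 5 lower in every case. For family genes it gave 18 to 20 higher and 9 to 11 lower. In the test against a 2-fold change, chosen after seeing the data, edgeR's glmTreat called 1077 genes, 20 members higher and 0 lower, 16 pathway genes higher and 0 lower, and 1 family gene higher and 0 lower. The deviations of same-numbered libraries correlated at -0.027, -0.022 and 0.019, so the numbers are not shown to pair the libraries. With a replicate block, 8168 genes and 38 members higher were called, and Tor3a was not (adjusted p = 0.0666, edgeR). The looser ISRE core was present in 12 members in place of 8. Depth limits Ifnb1, Phf11b, Sp110 and Epsti1.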
